A study of Mus musculus with 4 samples.

Results

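Metallothioneins and the genes that move and sense zinc were followed across 4 microarrays of mouse liver. The 7 genes were the metallothioneins Mt1 and Mt2, the zinc-sensing factor Mtf1, the exporters Slc30a1 and Slc30a10, and the importers Slc39a14 and Slc39a4. Each was taken from a fixed list of symbols as the probe set that carried that symbol alone, the brightest where there were several; all 7 were measured, each by 1 probe set, of 19505 genes with a symbol on the array. The list was drawn up with values of these arrays known, so the differences below are a description.

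The study asked what loss of Mcu, the pore of the mitochondrial calcium uniporter, does to the regenerating liver. Every array held liver RNA of male mice on a C57BL6J background whose Mcu alleles were flanked by loxP sites in the protocol, injected at 10 to 12 weeks of age with an adeno-associated virus of serotype 8. The 4 groups were knockdown liver (KD, virus AAV8-TBG-Cre) taken 30 h after removal of 70% of the liver, knockdown liver at 0 h, control liver (WT, virus AAV8-TBG-Null in littermates, genotype label Wild type) at 30 h, and control liver at 0 h. The surgery came 5 weeks after the virus. The TBG promoter is active in hepatocytes, so Cre was directed to these cells and other liver cells were not targeted. Each group was 1 array of RNA that the series text describes as pools of 4 animals, so no value carries an error and no difference was tested. No group had surgery without loss of liver, and the loss cannot be told apart from the operation or from the hour of sampling. The sample descriptions mention ethanol feeding and, for the knockdown array at 30 h, a time of 1 h after surgery, which the titles and time labels do not; groups follow the titles. Mcu itself read 2.63 and 2.83 on the log2 scale in knockdown liver at 30 h and 0 h, and 4.30 and 4.77 in control liver at these times.

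Metallothioneins are small cysteine-rich proteins that bind zinc, copper and cadmium, and the liver is a main site of Mt1 and Mt2 expression. Their genes are switched on by free zinc through Mtf1, which binds metal response elements in their promoters, and also by glucocorticoids and by interleukin-6 in the acute phase. SLC30 proteins lower zinc in the cytosol by export or by loading vesicles, and SLC39 proteins bring zinc into the cytosol. Slc30a1 is the zinc exporter of the plasma membrane and another target of Mtf1, Slc30a10 exports manganese, Slc39a14 takes zinc, iron and manganese into hepatocytes, and Slc39a4 is best known as the zinc importer of the gut.

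The promoters are shown because Mt1 and Mt2 had similar patterns that the other metal genes did not share. RefSeq start windows of assembly GRCm38.p6 were found for 5 of the 7 genes, and the 250 bases before the start are printed for 4 of them, with matches to the metal response element core in capitals. The core was searched as TGCACNC and TGCGCNC on both strands.

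Mt1, chr8:94178839-94179088, + strand: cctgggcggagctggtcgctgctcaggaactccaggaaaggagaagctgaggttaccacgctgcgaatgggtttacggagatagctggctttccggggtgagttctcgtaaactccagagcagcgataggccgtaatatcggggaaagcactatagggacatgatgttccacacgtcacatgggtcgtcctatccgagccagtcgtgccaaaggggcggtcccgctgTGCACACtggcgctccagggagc

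Mt2, chr8:94172368-94172617, + strand: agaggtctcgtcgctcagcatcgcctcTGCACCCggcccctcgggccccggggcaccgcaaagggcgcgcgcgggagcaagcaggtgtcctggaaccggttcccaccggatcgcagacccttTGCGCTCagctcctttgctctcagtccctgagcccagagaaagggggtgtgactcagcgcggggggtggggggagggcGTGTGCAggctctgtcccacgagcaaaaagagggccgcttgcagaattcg

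Slc30a1, chr1:191906531-191906780, + strand: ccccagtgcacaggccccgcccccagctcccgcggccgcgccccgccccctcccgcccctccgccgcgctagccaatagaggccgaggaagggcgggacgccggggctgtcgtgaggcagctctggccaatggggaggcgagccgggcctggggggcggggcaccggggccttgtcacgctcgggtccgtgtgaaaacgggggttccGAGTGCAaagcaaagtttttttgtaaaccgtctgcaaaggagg

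Slc30a10, chr1:185454598-185454847, + strand: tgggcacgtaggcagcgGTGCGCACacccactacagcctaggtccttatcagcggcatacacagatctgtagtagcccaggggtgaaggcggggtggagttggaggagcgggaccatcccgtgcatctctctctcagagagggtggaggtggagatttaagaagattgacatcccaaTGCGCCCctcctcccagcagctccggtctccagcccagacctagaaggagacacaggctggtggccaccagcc

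The Mt1 stretch held 1 core, between 23 and 17 bases before the start. The Mt2 stretch held 3, at 223 to 217, 128 to 122 and 50 to 44 bases before it, the last on the opposite strand. Slc30a1 held 1 core on the opposite strand, Slc30a10 held 3 of which 2 overlap each other, and Mtf1 held 0. At least 1 core lay in 21.4% of 32841 windows and at least 3 in 1.26%. When the 50 bases after the start were searched too, Mt1 held 3 cores, Mt2 4, Slc30a1 2, Slc30a10 3 and Mtf1 0. At least 2 were found in 7.12% of windows, at least 3 in 1.97% and at least 4 in 0.518%. Only the annotated RefSeq start was used, and bases further after it were not searched. The counts, that of Mt1 above all, thus depend on where that start lies.

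None of these 5 stretches held the STAT element TTCNNNGAA, which 7.02% of windows hold. The antioxidant response element core, searched as TGACNNNGC and TGAGNNNGC, occurred once in Mt2, once in Mtf1 and 2 times in Slc30a1, against 23.0% of windows with at least 1. The letters AGAACA, one arm of the glucocorticoid response element, occurred once, in Mtf1, and in 16.1% of windows. No listed match overlapped a match of another motif, and none says whether a factor binds there.

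**Figure D1:**
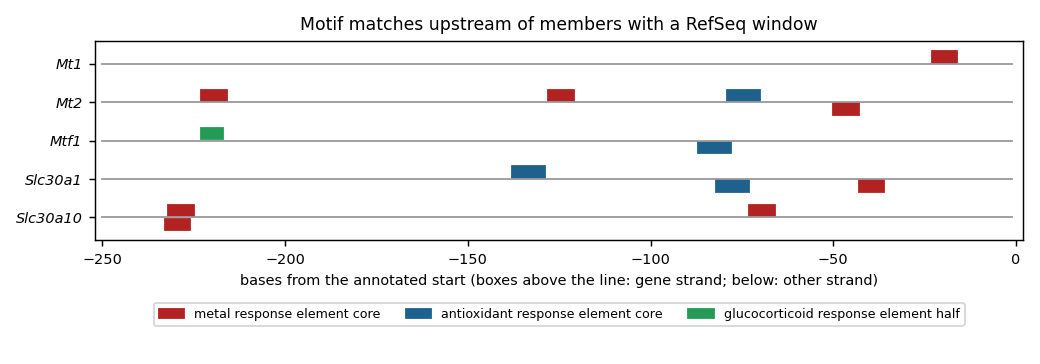
Positions of motif matches in the 250 bases before the RefSeq start of 5 genes, with distance from the start in bases on the horizontal axis and 1 line per gene; boxes above a line are matches on the gene's strand and boxes below it on the other. Mt2 has 3 metal response element cores, Mt1 and Slc30a1 have 1 each, Slc30a10 has 3 and Mtf1 has none.

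Mt1 and Mt2 were far higher 30 h after hepatectomy than at 0 h in both genotypes, while none of the other 5 genes was 2-fold higher in either. Mt2 had log2 values of 12.03 in knockdown liver at 30 h and 6.02 at 0 h, and of 11.67 at 30 h and 8.15 at 0 h in control liver. Both 30 h arrays were close together and far above both 0 h arrays, and the knockdown array at 0 h was the lowest by a wide margin. Mt1 read 11.77 in knockdown liver at 30 h and 6.94 at 0 h, and 11.36 at 30 h and 7.63 at 0 h in control liver. It had the same order of arrays as Mt2, with a smaller gap between the genotypes at 0 h. Values of different probe sets do not give the relative abundance of the 2 transcripts.

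**Figure D2:**
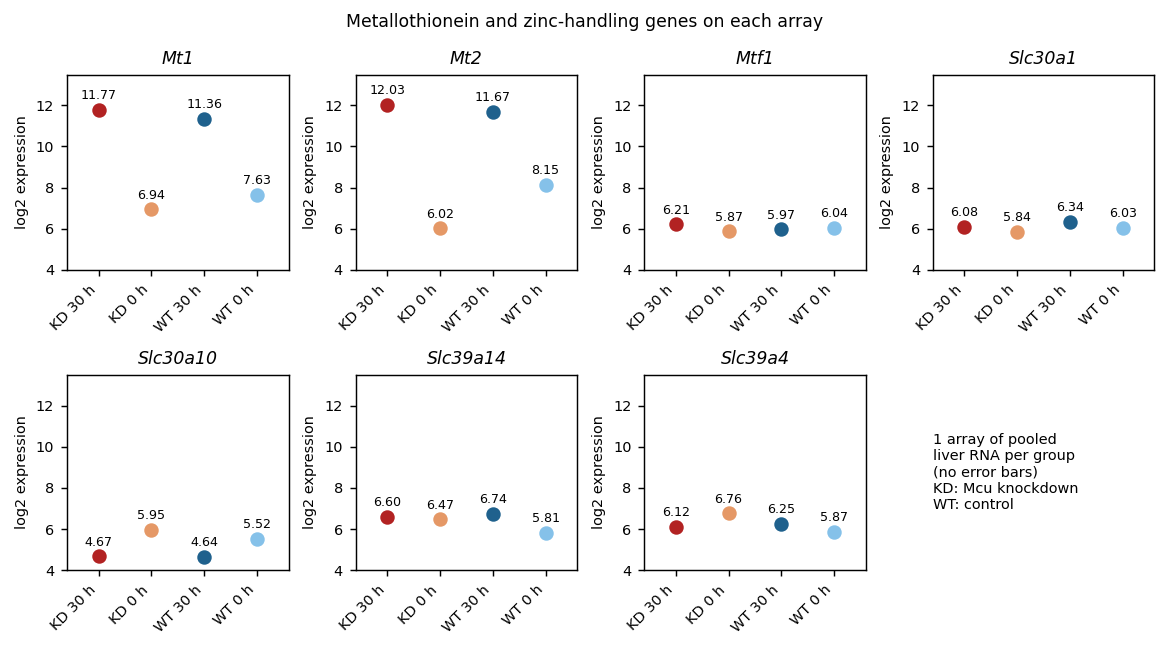
Log2 expression (vertical axis) of the 7 genes on each of the 4 arrays, 1 array of pooled RNA per group, with no error bars. Mt1 and Mt2 lie above 11 on both 30 h arrays and between 6.02 and 8.15 on the 0 h arrays, while the other 5 genes lie between 4.64 and 6.76 throughout.

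In knockdown liver the 30 h array was 64.4-fold above the 0 h array for Mt2 (log2 difference 6.01, the 2nd highest of 19505 genes) and 28.4-fold for Mt1 (4.83, the 4th highest). Slc30a10 was 2.43-fold lower (-1.28), which made 3 of 7 genes at least 2-fold different, where 4.73% of all genes were. In control liver Mt1 was 13.3-fold higher (3.73, rank 9) and Mt2 11.5-fold higher (3.52, rank 14). These were the only genes of the 7 at least 2-fold different, where 6.41% of all genes were. The other 5 genes lay between -0.88 and 0.93 in control liver, and between -1.28 and 0.34 in knockdown liver. The list was chosen from these contrasts, so the counts are not set against the background as a result.

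At 30 h the genotypes differed little in all 7 genes. Mt1 was 0.41 and Mt2 0.36 higher on the log2 scale in knockdown liver (1.33-fold and 1.28-fold). The other 5 genes lay between -0.26 (Slc30a1) and 0.24 (Mtf1), so 0 of 7 reached 2-fold, where 3.93% of all genes did. Of all genes at least 2-fold different at 30 h, 52.6% were higher in knockdown liver, a share that was 39.8% after median centring and 41.5% after cyclic loess.

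At 0 h the genotypes differed most in Mt2. Its knockdown array was 4.38-fold below the control array (-2.13), the lowest log2 difference of all 19505 genes as deposited, after median centring, after quantile normalization and after cyclic loess alike. Mt1 was lower in the same direction by a smaller amount (-0.69, 1.61-fold). Mt2 was the only 1 of 7 genes at least 2-fold different, where 2.7% of all genes were. Both importers among the 7 genes were on the other side. Slc39a4 was 0.89 higher (1.85-fold) and Slc39a14 0.66 higher (1.58-fold) in knockdown liver at 0 h, and the exporter Slc30a10 was 0.43 higher. Importers as a family did not share this, since of the 12 other SLC39 genes 6 were higher and 6 lower at 0 h (median -0.02).

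The difference between the responses of the genotypes follows from these values. For Mt2 it was 2.49, the 6th highest of all genes, of which 0.36 came from the 30 h arrays and 2.13 from the lower knockdown value at 0 h. For Mt1 it was 1.10, made of 0.41 at 30 h and 0.69 at 0 h. For Slc39a4 it was -1.02, which made 3 of 7 genes at least 2-fold different, where 11.8% of all genes were; it was -0.80 after quantile normalization and -0.77 after cyclic loess, short of 2-fold. Slc39a14 differed by -0.80, Mtf1 by 0.41, Slc30a10 by -0.40 and Slc30a1 by -0.07, the last turning positive after quantile normalization (0.16) and cyclic loess (0.17).

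**Figure D3:**
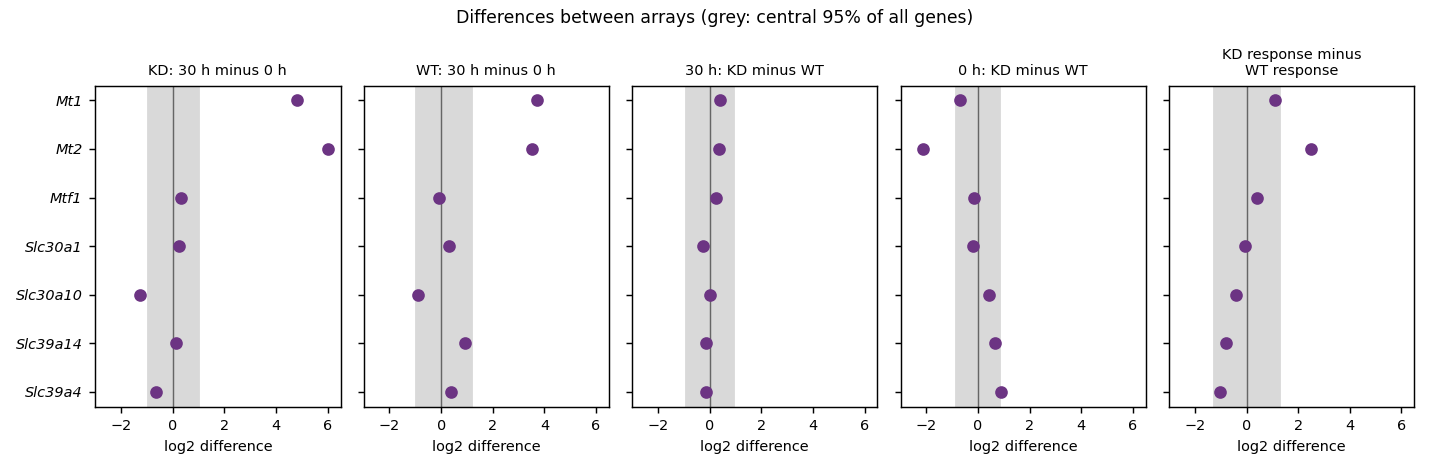
Log2 differences (horizontal axis) of the 7 genes in 5 comparisons, with the central 95% of all 19505 genes in grey. Mt1 and Mt2 lie far to the right of the grey range in both responses, all 7 genes lie inside it at 30 h, and Mt2 at -2.13 lies left of it at 0 h, where Slc39a4 at 0.89 sits just past its upper end of 0.86.

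The genes nearest in pattern to the metallothioneins were picked by a measure of likeness. It was the Euclidean distance between the 4 log2 values of each gene after subtraction of its mean, over 9465 other genes at or above the median level, and rests on 4 arrays. Nearest to Mt1 were the orosomucoid Orm2 (distance 0.41), the lysophospholipid transporter Mfsd2a (0.57), the serum amyloids Saa1 (0.62) and Saa2 (0.85), and then Mt2 (1.13). Nearest to Mt2 were Mt1 (1.13), Saa2 (1.23), Orm2 (1.33), Lcn2 (1.35), which encodes a siderophore-binding protein, and Mfsd2a (1.38). Mt2 thus had no gene nearer than Mt1, at a distance well over that from Mt1 to Orm2.

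The place where Mt2 left these genes was the 0 h pair of arrays. In knockdown minus control liver at 0 h, Lcn2 differed by -1.02, Mfsd2a by -0.77, Orm2 by -0.69, Saa2 by -0.46 and Saa1 by -0.04. At 30 h the same genes differed by -0.01, -0.05, 0.10, 0.28 and -0.04. These 5 genes were picked for likeness over the same 4 arrays, so sharing part of this pattern follows from the choice.

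**Figure D4:**
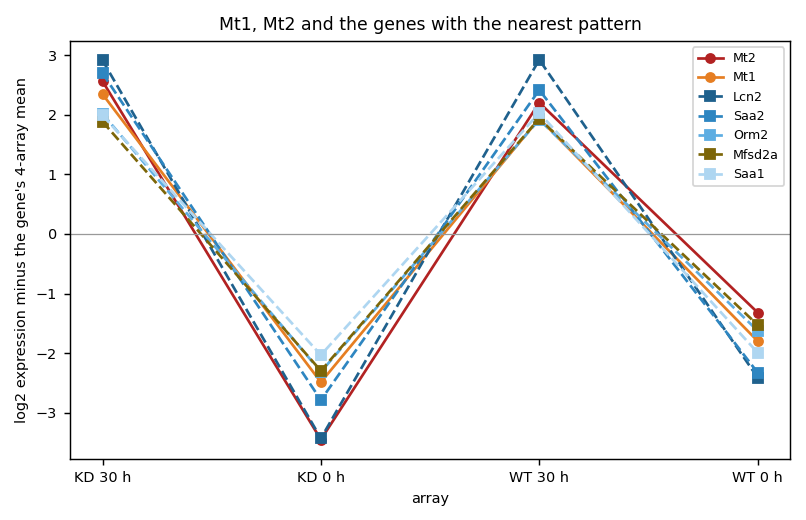
Log2 expression minus each gene's mean over the 4 arrays (vertical axis) for Mt1 and Mt2 (solid lines) and the 5 acute phase and transport genes nearest to them (dashed lines), with 1 array per position on the horizontal axis; lines join the values of a gene and do not stand for time. All 7 genes are high on both 30 h arrays, and Mt2 shows the widest gap between knockdown and control liver at 0 h.

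The metallothionein genes lie side by side on chromosome 8 in the order Mt4, Mt3, Mt2, Mt1 in RefSeq, and the high values at 30 h were not shared along the cluster. Mt4, known from stratified epithelia, read 5.51 and 5.25 in knockdown liver at 30 h and 0 h, and 5.53 and 5.23 in control liver. Mt3, known from brain, read 3.09 and 2.86 in knockdown liver and 3.03 and 3.13 in control liver, below the median gene level of 3.83. All differences of both genes were between -0.27 and 0.33. The next coding genes on either side, Bbs2 and Nup93, differed between 30 h and 0 h by -0.30 and 0.24 in knockdown liver and by -0.77 and 0.36 in control liver. Mt1 and Mt2 are close paralogs, and how far the probes of one bind transcripts of the other was not tested.

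Mtf1 differed little between the arrays, unlike its known targets Mt1 and Mt2. It read 6.21 and 5.87 in knockdown liver at 30 h and 0 h, and 5.97 and 6.04 in control liver. The range over the 4 arrays was 0.34, the narrowest of the 7 genes. Its log2 difference between 30 h and 0 h was 0.34 in knockdown liver and -0.07 in control liver, inside the central 95% of all genes (-0.94 to 1.02 and -0.96 to 1.21).

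Slc30a1, the other textbook target of Mtf1, was also nearly flat. It read 6.08 and 5.84 in knockdown liver at 30 h and 0 h, and 6.34 and 6.03 in control liver. The 30 h array was the higher one in both genotypes, by 0.24 in knockdown and 0.31 in control liver, and knockdown liver was the lower one at both times, by -0.26 at 30 h and -0.19 at 0 h. Each of these is small beside the 6.01 and 3.52 of Mt2. The arrays give mRNA levels, so the activity of the Mtf1 protein was not measured. The cause of the Mt1 and Mt2 differences was not tested.

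Slc30a10 was the one gene of the 7 that was lower at 30 h in both genotypes. It read 4.67 and 5.95 in knockdown liver at 30 h and 0 h, and 4.64 and 5.52 in control liver. The 30 h values of the genotypes were 0.03 apart, a sign that turned to -0.03 after median centring. The 2.43-fold lower value in knockdown liver was the 142nd lowest difference of 19505 genes, and the 1.84-fold lower value in control liver (-0.88) ranked 674 from the lowest. Its nearest genes in pattern were the enolase Eno3 (distance 0.07), the helicase-like ubiquitin ligase Shprh (0.10), the cytochrome Cyp2f2 (0.10), the glutathione transferase Gsta3 (0.13) and Slc22a30 (0.15), all 5 lower at 30 h than at 0 h in both genotypes.

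Slc39a14, which interleukin-6 raises in mouse liver during inflammation, was higher at 30 h in control liver and little different in knockdown liver. It read 6.60 and 6.47 in knockdown liver at 30 h and 0 h, and 6.74 and 5.81 in control liver. Control liver at 0 h was the low array, and the other 3 lay between 6.47 and 6.74. The difference between 30 h and 0 h was 0.13 in knockdown liver and 0.93 (1.91-fold) in control liver. The control value was 0.72 after quantile normalization and 0.74 after cyclic loess. The difference of responses, -0.80 as deposited, was -0.55 and -0.54 after these scalings. The genotypes differed at 30 h by -0.14, which turned to 0.05 after quantile normalization and 0.04 after cyclic loess.

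Slc39a4 differed between 30 h and 0 h in opposite directions in the genotypes, by less than 2-fold in each. It read 6.12 and 6.76 in knockdown liver at 30 h and 0 h, and 6.25 and 5.87 in control liver. Knockdown liver at 0 h was the high array and control liver at 0 h the low one. The difference between 30 h and 0 h was -0.64 (1.56-fold lower) in knockdown liver and 0.38 (1.30-fold) in control liver, and 0.20 in control liver after either quantile normalization or cyclic loess. At 30 h the genotypes differed by -0.13, with the sign turned after quantile normalization (0.04) and cyclic loess (0.05).

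The rest of the zinc transporter families were counted beside all genes. Over all genes, 4.73% were at least 2-fold different between 30 h and 0 h in knockdown liver and 6.41% in control liver. In either direction by any amount, 9793 genes were higher and 9527 lower in knockdown liver, and 9566 higher and 9754 lower in control liver. The families are too small for their counts to be told apart from these shares. Of the 8 other SLC30 genes, 7 were higher and 1 lower at 30 h in knockdown liver, and 6 were higher and 2 lower in control liver, with 0 at least 2-fold different in either. Their median differences were 0.27 and 0.40, against 0.01 and -0.01 over all genes, and -0.04 and 0.10 over the 9759 genes at or above the median level. The highest in knockdown liver were Slc30a3 (0.83, and 0.50 in control liver) and Slc30a9 (0.78), and the highest in control liver were Slc30a9 (0.83) and Slc30a4 (0.70, and 0.32 in knockdown liver). Of the 12 other SLC39 genes, 7 were higher and 5 lower at 30 h in each genotype, with medians of 0.07 and 0.03. The dim gene Slc39a2 was the only one past 2-fold, at -1.03 in knockdown liver against -0.15 in control liver, on log2 values of 1.73 and 2.76 in knockdown liver and 1.74 and 1.89 in control liver.

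Between genotypes, 0 of these 20 genes were at least 2-fold different at 30 h, where 3.93% of all genes were. At 0 h 1 was, where 2.7% of all genes were. That was Slc39a6, an importer that read 4.93 in knockdown and 3.92 in control liver at 0 h (1.01). Its pattern had the same signs as Slc39a4, with -0.67 between 30 h and 0 h in knockdown liver and 0.50 in control liver. Slc39a8, which like Slc39a14 carries manganese, differed by -0.59 in knockdown and -0.12 in control liver.

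**Figure D5:**
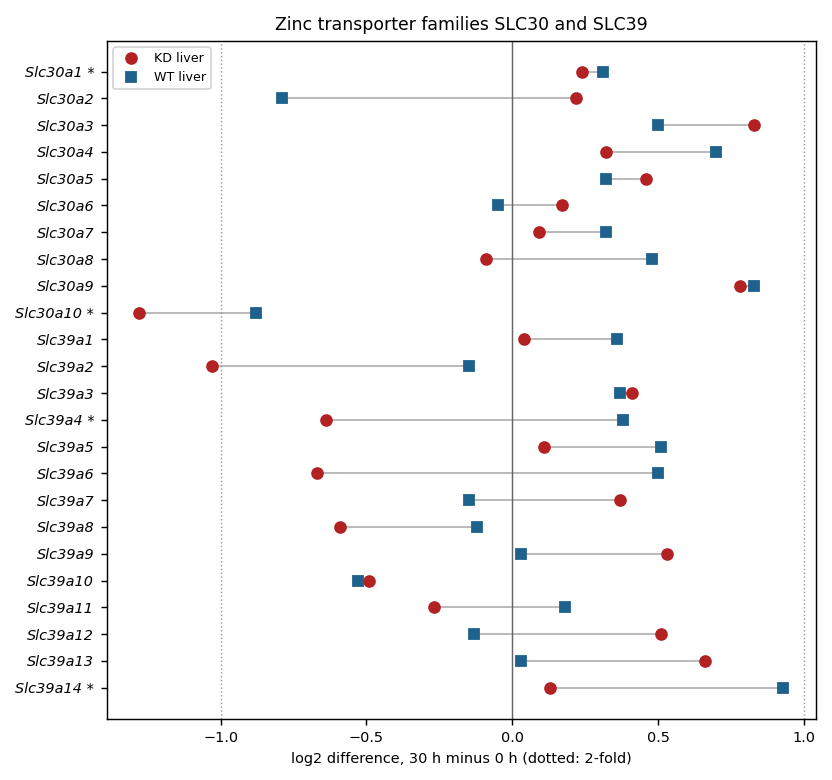
Log2 difference between 30 h and 0 h (horizontal axis) of each measured SLC30 and SLC39 gene in knockdown liver (red circles) and control liver (blue squares), with asterisks on the 4 genes described above and dotted lines at 2-fold. Most genes lie within 2-fold; Slc30a10 (-1.28) and Slc39a2 (-1.03) pass it in knockdown liver, and the Slc39a4 and Slc39a6 points of the genotypes lie on opposite sides of 0.

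A list drawn up as zinc-dependent enzymes of liver did not follow the metallothioneins. It also held Qdpr and Dhps, which are not zinc enzymes and are included in the counts. Of 14 measured, 3 were higher and 11 lower at 30 h in knockdown liver (median -0.29), and 5 were higher and 9 lower in control liver (median -0.10). All but Car2 and Ace were at or above the median level. Of the 9759 genes there, 4504 were higher and 5186 lower in knockdown liver, and 5684 higher and 3986 lower in control liver. Over all genes, 4.73% were at least 2-fold different in knockdown liver and 6.41% in control liver. Qdpr, a reductase of biopterin recycling, was the only one at least 2-fold lower in knockdown liver (-1.25), so no zinc enzyme of the list was. Dhps differed by 0.31 in knockdown and -0.19 in control liver. In control liver Alad, the zinc-requiring second enzyme of haem synthesis (1.21), and the carbonic anhydrase Car2 (1.01) were at least 2-fold higher. Sod1, the copper-zinc superoxide dismutase, differed by -0.05 in knockdown and -0.17 in control liver.

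Genes tied to the known inducers of metallothioneins were counted by list. Of 22 genes of the interleukin-6, STAT3 and acute phase list, 10 were at least 2-fold higher and 0 lower at 30 h in knockdown liver (median 0.83), and 13 were higher and 0 lower in control liver (median 1.20). Of all 19505 genes, 531 were at least 2-fold higher and 392 lower at 30 h in knockdown liver, and 818 were higher and 433 lower in control liver. At 0 h the median of this list between genotypes was -0.01, with Socs3, the feedback inhibitor of this pathway, at 2.07 and Lcn2 at -1.02 the genes past 2-fold. Socs3 read 5.11 and 5.37 in knockdown liver at 30 h and 0 h, and 4.95 and 3.30 in control liver. Knockdown liver at 0 h, the array with the lowest Mt2 value, had the highest Socs3 value and the lowest Lcn2 value (5.74). No relation between these genes was tested. The receptor gene Il6ra differed between 30 h and 0 h by -0.89 in knockdown and 0.16 in control liver.

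Of 14 glucocorticoid-responsive genes, 8 were higher and 6 lower at 30 h in knockdown liver (median 0.23), and 11 were higher and 3 lower in control liver (median 0.40). All 14 were at or above the median level. Of the 9759 genes there, 4504 were higher and 5186 lower in knockdown liver, and 5684 higher and 3986 lower in control liver. Fkbp5, a co-chaperone of the glucocorticoid receptor, was higher by 1.21 in knockdown and 1.77 in control liver. Igfbp1 passed 2-fold in knockdown liver (1.53) and Per1 in control liver (1.56). In the other direction, Tsc22d3 differed by -0.97 in knockdown and -0.08 in control liver, and Klf9 by -0.95 and -0.38. Sgk1 differed by -0.48 in knockdown and 0.53 in control liver. At 0 h, 9 of the 14 were higher in knockdown liver and 3 lower, none by 2-fold. The values lay between -0.14 and 0.59, with Sgk1 at 0.59 and Fkbp5 at 0.49. Of the 9759 genes at or above the median level, 5536 were higher and 4121 lower in knockdown liver at 0 h. Mt1 and Mt2 were lower on that array. The receptor gene Nr3c1 read between 4.67 and 4.82 on all 4 arrays.

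Hepatocyte markers were near the top of every array: 8 of 9 were measured, with a mean log2 level of 11.12 and 11.15 in knockdown liver at 30 h and 0 h, and of 11.16 and 11.09 in control liver. Markers of other cells differed between the arrays in both directions, in bulk samples where fewer cells of a type and less RNA per cell cannot be told apart. Summed on the linear scale, 8 of 8 Kupffer cell markers came to 464 and 495 in knockdown liver at 30 h and 0 h, and to 549 and 348 in control liver. The 8 sinusoidal endothelial markers came to 269 and 455 in knockdown liver and to 319 and 353 in control liver, and the 8 stellate cell markers to 227 and 294 in knockdown liver and to 244 and 248 in control liver. In the other direction at 0 h, the 5 measured cholangiocyte markers came to 69.8 and 56.4 in knockdown liver at 30 h and 0 h, and to 68.0 and 64.7 in control liver, with 4 of 5 lower in knockdown than in control liver at 0 h (median -0.53). The 4 measured erythroid markers came to 103 and 163 in knockdown liver and to 103 and 195 in control liver (median at 0 h -0.28), and the 5 intestinal or pancreatic markers to 297 and 255 in knockdown liver and to 270 and 315 in control liver (median at 0 h -0.31). Mt1 and Mt2 were also lower in knockdown liver at 0 h. Control liver at 0 h was the lowest of the arrays for Kupffer cell markers, as it was for Slc39a14 and Slc39a4, and knockdown liver at 0 h was the highest for sinusoidal endothelial and stellate markers, as it was for Slc39a4. No probe set gave a reading of 0, and 5 of 5 measured lymphocyte and 5 of 7 neutrophil markers lay below the median gene level. The part of these cells in the values of the 7 genes was not tested.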

How the data were processed

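Liver RNA of 4 groups was measured on 4 Affymetrix whole-transcript arrays, 1 per group, grouped by sample title. The authors deposited 1 log2 value for each probe set and array; the submitters' processing notes name RMA and Affymetrix Expression Console. RMA adjusts background, equalises arrays and summarises probes. For its settings, version and genome build, the sources used here give nothing. Of 22206 probe sets, 19572 had 1 symbol in the platform annotation, 0 had several and 2634 were unnamed; 55 of 19505 genes had several probe sets and took the brightest. All 7 members were at or above the median gene mean (3.83).

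Differences of log2 values were counted at 2-fold or more over all 19505 genes. With 1 array per group there was no test and no p-value; arrays have no sequencing depth, and their number limits the precision. Dim values understate folds. The named genes were the 7 members, some genes past 2-fold per list (at most 4 in each direction), and nearest genes in pattern. The latter were the 5 nearest genes of each member whose values spanned at least 1. Not every gene past 2-fold was named, and Srxn1, Gsr and Osgin1 of the oxidative list are among those left out. Other genes given with values, the chromosomal neighbours among them, were chosen after their values were seen. The members and lists were chosen with earlier results of these data known. The counting was checked on simulated data. Alternatives (limma 3.58.1 under R 4.3.3) were quantile, cyclic loess and median scaling, thresholds of 1.5-fold and 3-fold, probe set means and dim genes left out. Sequences are from RefSeq, GRCm38.p6. Part of the genotype label is not reported here.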

Additional observations from a re-analysis of the deposited data

Results flagged for a closer look

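Several genes differed in opposite directions on the arrays of the 2 genotypes or of the 2 times. Each rests on 4 single arrays, and none of these differences was tested. The share of all genes that differ in opposite directions was not counted, so none of these is called unusual. Knockdown liver was above control liver at 30 h and below it at 0 h for Mt2 (0.36 and -2.13, a difference of 2.49), Mt1 (0.41 and -0.69, a difference of 1.10) and Mtf1 (0.24 and -0.17, a difference of 0.41). It was below control liver at 30 h and above it at 0 h for Slc39a4 (-0.13 and 0.89, a difference of -1.02) and Slc39a14 (-0.14 and 0.66, a difference of -0.80), with the 30 h sign of both turned after quantile normalization and cyclic loess. Between 30 h and 0 h, Slc39a4 differed by -0.64 in knockdown and 0.38 in control liver, and Mtf1 by 0.34 and -0.07.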

How the results depend on the processing

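Across 3 other scalings and probe set means, no difference of the 7 genes moved by more than 0.26 in log2 (140 values). None at least 2-fold changed sign, and 7 smaller ones did, all named above. Each of the 7 genes has 1 probe set, so probe set means returned the same values and could not move them. The counts of members at 2-fold were 3 (knockdown response), 2 (control response), 0 (30 h), 1 (0 h) and 3 (difference of responses). At 1.5-fold the control response had 4 and the 0 h comparison 4, since smaller differences then count, and at 3-fold the difference of responses had 1. In the same order of comparisons, all genes at 2-fold numbered 923, 1251, 766, 526 and 2307, at 1.5-fold 3918, 4596, 3829, 2977 and 6625, at 3-fold 167, 236, 72, 29 and 378, and with dim genes left out 525, 741, 322, 184 and 1041. No scaling moved the median of all genes by more than 0.06. No paired analysis was possible because each group had 1 array and no replicate number, and no replicate could be left out. No background level was used, so dim values have no detection limit here.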

Other observations

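Copper handling genes were counted in the same way. Of 15 measured, which include Mt1 and Mt2, 11 were higher and 4 lower in knockdown liver (median 0.35), and 14 were higher and 1 lower in control liver (median 0.41). All but 1 were at or above the median level, where 4504 of 9759 genes were higher and 5186 lower in knockdown liver, and 5684 were higher and 3986 lower in control liver. The metalloreductase Steap4 was higher by 1.62 in knockdown and 1.39 in control liver. Atox1, the chaperone that hands copper to the export pumps, read 7.54 and 6.90 in knockdown liver at 30 h and 0 h, and 7.52 and 5.99 in control liver, so control liver at 0 h was the low array. Cp, which encodes the copper protein ceruloplasmin of plasma, was higher by 0.92 in knockdown and 0.74 in control liver.

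Genes of the oxidative and electrophile response, some of which cadmium and zinc can also raise, were split in direction in knockdown liver. Of 14 measured, 6 were higher and 8 lower at 30 h in knockdown liver (median -0.36), and 9 were higher and 4 lower in control liver (median 0.29), beside the same shares of genes at or above the median level as above. Haem oxygenase Hmox1 was higher by 0.72 in knockdown and 1.11 in control liver, and Gclc, the catalytic subunit for glutathione synthesis, differed by -1.05 and -0.53. At 30 h, 13 of the 14 had lower values in knockdown liver than in control liver, led by Gsta2 (-1.23) and Nqo1 (-1.10), while Mt1 and Mt2 were 0.41 and 0.36 higher there; of the 9759 genes at or above the median level, 5973 had lower and 3690 higher values in knockdown liver at 30 h (median -0.11). Of 9 heat and cadmium stress genes, the median difference between 30 h and 0 h was 0.10 in knockdown and 0.29 in control liver, and Atf3 in knockdown liver (1.37, against 0.76 in control liver) was the only one past 2-fold.

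Of 9 manganese handling genes, which include Slc30a10 and Slc39a14, 8 had a smaller or more negative difference between 30 h and 0 h in knockdown than in control liver (median of the difference of responses -0.40). All 9 were at or above the median level, where 6167 of 9759 genes had a negative and 3527 a positive difference of responses (median -0.18), against a median of -0.02 over all genes. The iron exporter Slc40a1, which also carries manganese, had the most negative, with -0.60 in knockdown and 0.45 in control liver.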
